A study of Mus musculus with 6 samples.

Results

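Siglecs are receptors of the immunoglobulin superfamily that bind sialic acid, the sugar that caps many glycans on cell surfaces. Most carry inhibitory tyrosine motifs (ITIMs) in the cytoplasmic tail, which are phosphorylated by SRC family kinases and then recruit phosphatases that dampen signals from activating receptors, whereas a few pair instead with the activating adapter DAP12. They are known mainly from blood cells, and individual members are used as markers of macrophages, B cells, eosinophils or plasmacytoid dendritic cells. The 7 mouse genes described here are *Siglec1*, *Cd22*, *Cd33*, *Siglece*, *Siglecf*, *Siglecg* and *Siglech*. They were taken by symbol from the 56748 genes of the deposited table. The rule used no measured value, but it was set with earlier results of these data known.

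The 6 libraries hold RNA of primary osteocytes, the cells embedded in bone, grown in culture after isolation from long bones. The methods name C57BL/6 mice aged 7 weeks for osteocyte isolation in general and do not state the strain of the mice labelled cKO separately. In 3 cultures the cells came from WT mice. The other 3, labelled cKO, came from mice with *Gsdmd* fl/fl alleles and a DMP1-Cre transgene, in which the dentin matrix protein 1 promoter drives Cre recombinase so as to delete *Gsdmd*, the gene of the pore-forming protein of pyroptosis, in osteocytes. Cells were kept in culture for 7 days, and all 6 cultures were then stimulated, first with LPS (3 h at 10 ng/mL) and after that with aluminum hydroxide (3 h at 20 µg/mL). No unstimulated library was analysed here, so every value compares genotypes under stimulation. Nothing in the labels says whether the 3 libraries of a genotype came from separate animals or separate cultures, so the p-values measure only the spread between these libraries, which may be technical.

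A few facts of the whole data set bear on what follows. The libraries held 39566835 to 49734046 counts on genes. *Gsdmd* itself had counts from 549 to 699 in the WT group and from 885 to 1045 in the group labelled cKO (adjusted p = 2.27e-06), which goes against the label, although a count over all exons does not separate the floxed exons from the others. Directions below therefore rest on the label alone. The osteocyte genes *Dmp1*, *Sost* and *Mepe* had 6 counts or fewer in every library, so the labelled cell type was not supported by these markers, whereas *Pdpn* and *Col1a1* were abundant. *Xist*, the RNA of the inactive X chromosome, averaged 0.0468 CPM (counts per 1000000 counts, after scaling for depth) in WT and 1138 in the libraries labelled cKO, so that sex and genotype cannot be told apart in any comparison. Of 14 macrophage markers, 10 could be tested and all 10 were higher in the libraries labelled cKO, with log2 fold changes of 1.73 to 4.25. The list summed to 1150 to 1300 CPM in the WT group, against 5900 to 6190. Most of that sum was *Lyz2*, which alone averaged 986 CPM in WT and 4518 CPM in the libraries labelled cKO. In bulk RNA, fewer cells of a type and less RNA per cell cannot be told apart. The part of macrophage RNA in the results below was not tested.

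The genes of the family sit at 4 places in mm39. *Siglec1* lies on chromosome 2 from 130911140 to 130928685, *Cd22* on chromosome 7 from 30564827 to 30579767, and *Siglech* on chromosome 7 from 55417926 to 55428673. The other 4 form a cluster on chromosome 7, in the order *Siglecf* (43000765 to 43008955, plus strand), *Siglecg* (43057628 to 43067782, plus strand), *Cd33* (43173640 to 43193852, minus strand) and *Siglece* (43300494 to 43309585, minus strand). All 7 are annotated as protein coding.

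Promoters are shown for the 4 tested members that RefSeq's table holds one for, since these genes include neighbours that moved in opposite directions. Each runs 5′ to 3′ on the strand of the gene, from 250 bases before the start of transcription to 50 bases after it, in build GRCm38.p6, which is not the build of the counts. Capitals mark GAGGAA or its reverse complement TTCCTC, the purine-rich core recognised by the myeloid factor PU.1. *Cd33* is at chr7:43533122-43533421, *Siglece* at chr7:43660112-43660411, *Cd22* at chr7:30878979-30879278 and *Siglecg* at chr7:43407989-43408288, the first of 2 starts listed for it.
Cd33: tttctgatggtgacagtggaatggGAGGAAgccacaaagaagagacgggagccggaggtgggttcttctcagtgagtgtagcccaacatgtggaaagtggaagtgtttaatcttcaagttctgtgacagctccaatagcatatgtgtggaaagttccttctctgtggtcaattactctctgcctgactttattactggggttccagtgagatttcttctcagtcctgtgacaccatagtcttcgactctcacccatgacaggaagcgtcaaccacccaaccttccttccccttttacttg
Siglece: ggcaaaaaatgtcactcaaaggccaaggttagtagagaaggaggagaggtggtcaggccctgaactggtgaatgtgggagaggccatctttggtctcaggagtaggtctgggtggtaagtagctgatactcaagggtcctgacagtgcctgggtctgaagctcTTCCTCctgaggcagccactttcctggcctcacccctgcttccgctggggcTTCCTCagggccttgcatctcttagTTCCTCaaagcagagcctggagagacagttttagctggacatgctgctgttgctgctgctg
Cd22: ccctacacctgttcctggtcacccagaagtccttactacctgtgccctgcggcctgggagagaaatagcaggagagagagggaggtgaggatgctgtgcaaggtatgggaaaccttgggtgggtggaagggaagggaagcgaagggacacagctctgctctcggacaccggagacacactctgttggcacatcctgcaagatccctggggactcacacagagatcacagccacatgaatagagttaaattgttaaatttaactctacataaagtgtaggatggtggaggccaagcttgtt
Siglecg: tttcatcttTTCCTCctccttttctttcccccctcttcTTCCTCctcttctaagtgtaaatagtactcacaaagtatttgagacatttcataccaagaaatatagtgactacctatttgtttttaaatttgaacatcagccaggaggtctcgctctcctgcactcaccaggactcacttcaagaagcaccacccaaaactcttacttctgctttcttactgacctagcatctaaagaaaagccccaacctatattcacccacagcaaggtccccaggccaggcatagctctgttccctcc

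The motif occurred 1 time in the *Cd33* window, 3 times in that of *Siglece*, 2 times in the *Siglecg* window shown and 0 times both in the window of its other start and in that of *Cd22*. Of 32851 mouse promoters of this length, 28.3% held it on one strand or the other. The count of matches did not separate the gene that was lower from those that were higher, and a match is a run of letters, not a bound site.

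Depth was equalised with TMM factors, levels were expressed in CPM, and genotypes were compared with edgeR's quasi-likelihood test. A gene is said to have risen or fallen when its p-value, adjusted by the Benjamini-Hochberg method over 17146 tested genes, was below 0.05, and to be called higher or lower when its log2 fold change was also at least 1 in size. By this rule 4 of the 7 Siglec genes were called higher in the libraries labelled cKO (*Siglec1*, *Cd22*, *Cd33* and *Siglece*) and 0 lower, 1 fell by less than the limit (*Siglecg*), and 2 had too few counts to be tested (*Siglecf* and *Siglech*). Over all tested genes, 6.56% were called higher and 4.64% lower, and 20.1% rose and 19.2% fell whatever their fold change. The libraries of the genotypes did not overlap for the 5 tested members, nor for 49.2% of all tested genes. Because *Cd22* and *Siglece* reached the filter on low counts only through the libraries in which they were high, these counts describe the genes that could be tested and lend no weight to one another.

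*Siglec1* encodes sialoadhesin, or CD169, a long adhesion receptor of resident macrophages that lacks an ITIM. It was counted 213, 271 and 244 times in WT and 1884, 1995 and 2071 times in the libraries labelled cKO. Scaled to depth, these were 4.73, 5.46 and 6.29 CPM against 44.8, 50.2 and 45.6 CPM. The groups lay far apart, with the lowest cKO-labelled library several times above the highest WT library. The mean rose from 5.49 ± 0.777 to 46.8 ± 2.91 CPM (SD, n = 3 each), an 8.55-fold difference, or 3.10 ± 0.096 (standard error) on the log2 scale, with an adjusted p of 2.85e-14 by edgeR's quasi-likelihood test.

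*Cd33* encodes a myeloid receptor and was the most highly counted gene of the family. Its levels were 11.0, 10.2 and 11.7 CPM in WT and 55.5, 52.8 and 52.5 CPM in the libraries labelled cKO. These replicates were the tightest of the family, and the groups did not come near each other. The mean rose from 11.0 ± 0.719 to 53.6 ± 1.67 CPM (SD, n = 3 each), 4.89-fold, or 2.29 ± 0.071 on the log2 scale (adjusted p = 2.95e-14 by the same test). The 95% intervals of *Siglec1*, 2.89 to 3.30 on the log2 scale, and *Cd33*, 2.14 to 2.44, did not meet.

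*Cd22* encodes an inhibitory receptor that restrains signals of the B cell receptor. Its counts were low, at 20, 32 and 7 in WT and 86, 112 and 108 in the libraries labelled cKO. WT replicate 3 was the lowest library, and every cKO-labelled library was above all of WT. The mean rose from 0.423 ± 0.233 to 2.41 ± 0.388 CPM (SD, n = 3 each), 5.55-fold, or 2.47 ± 0.37 on the log2 scale (adjusted p = 3.55e-05 by edgeR's quasi-likelihood test). Genes that define B cells were close to absent from the same libraries. *Ms4a1* had 0 counts in all 6, which allows up to 0.0605 to 0.0773 CPM per library for a count of 0, and *Cd79a*, *Cd79b*, *Blk* and *Cr2* had 4 counts or fewer in any library. *Pax5* had 8 to 29 counts in the WT group and 2 to 6 in the other and was not tested, and *Ebf1*, also known from stromal cells, fell slightly (log2 fold change -0.36). An antisense gene, *Gm29439*, overlaps *Cd22* and averaged 0 counts in WT and 6 in the libraries labelled cKO. The strand setting of the counting is not given in the sources used here, so the reads of the pair cannot be told apart.

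*Siglece* encodes an inhibitory ITIM receptor of neutrophils, monocytes and macrophages. It was counted 2, 0 and 2 times in WT and 15, 35 and 21 times in the libraries labelled cKO. WT was thus at the floor of 3 counts per library, and cKO-labelled replicate 2 stood highest. The mean level in the libraries labelled cKO, 0.566 ± 0.277 CPM (SD, n = 3), was at least 8.31-fold higher than 3 counts per WT library, or at least 4.16-fold with the floor at 6 counts in case both mates of a pair were counted. The adjusted p-value was 0.0005 by edgeR's quasi-likelihood test, and with counts halved the gene had too few to be tested. In the GENCODE M39 annotation 34.5% of the 100-base stretches of its transcripts are also found, on the other strand, in transcripts of *Ceacam18*, which had 0 counts in all 6 libraries of the table.

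*Siglecg* encodes an inhibitory ITIM receptor known from B cells and dendritic cells, for which CD24 serves as a ligand. It was counted 334, 361 and 421 times in WT and 162, 150 and 251 times in the libraries labelled cKO. In CPM these were 7.42, 7.27 and 10.8 against 3.85, 3.77 and 5.53. The groups did not overlap, but the third replicate was the highest in both and widened the spread. The mean fell from 8.51 ± 2.02 to 4.38 ± 0.991 CPM (SD, n = 3 each), 1.93-fold, a log2 fold change of -0.95 ± 0.19 (standard error; 95% interval -1.34 to -0.56, adjusted p = 0.000464 by edgeR's quasi-likelihood test). That is just inside the limit of 1, so the gene was not called, although it became called without WT replicate 1 (-1.06), WT replicate 2 (-1.06) or cKO-labelled replicate 3 (-1.15), and with upper-quartile scaling (-1.02). Its interval lay wholly below 0 and those of the other tested members wholly above. The nearly silent B cell genes listed above apply here too. Of its 100-base stretches, 1.88% occur on the same strand in transcripts of other genes.

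*Siglecf*, a marker of eosinophils and alveolar macrophages, was counted 13, 5 and 0 times in WT and 0, 8 and 0 times in the libraries labelled cKO. The groups overlapped and no difference was detectable at this depth. With the filter lifted, the adjusted p-value was 0.639. The eosinophil genes *Epx*, *Il5ra* and *Ear1* had 0 counts in all 6 libraries, and *Prg2* had at most 1, whereas *Ccr3*, the 1 gene of that list that could be tested, was called higher (log2 fold change 3.08). *Siglech*, a receptor of plasmacytoid dendritic cells that signals through DAP12, had 0 counts in all 6 libraries, with the same allowance of 0.0605 to 0.0773 CPM per library. The plasmacytoid dendritic cell genes *Klk1* and *Spib* were likewise at 0 throughout, whereas *Irf8* and *Bst2* of the same list, both also known from other cells, were called higher (log2 fold changes 2.72 and 1.17).

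**Figure D1:**
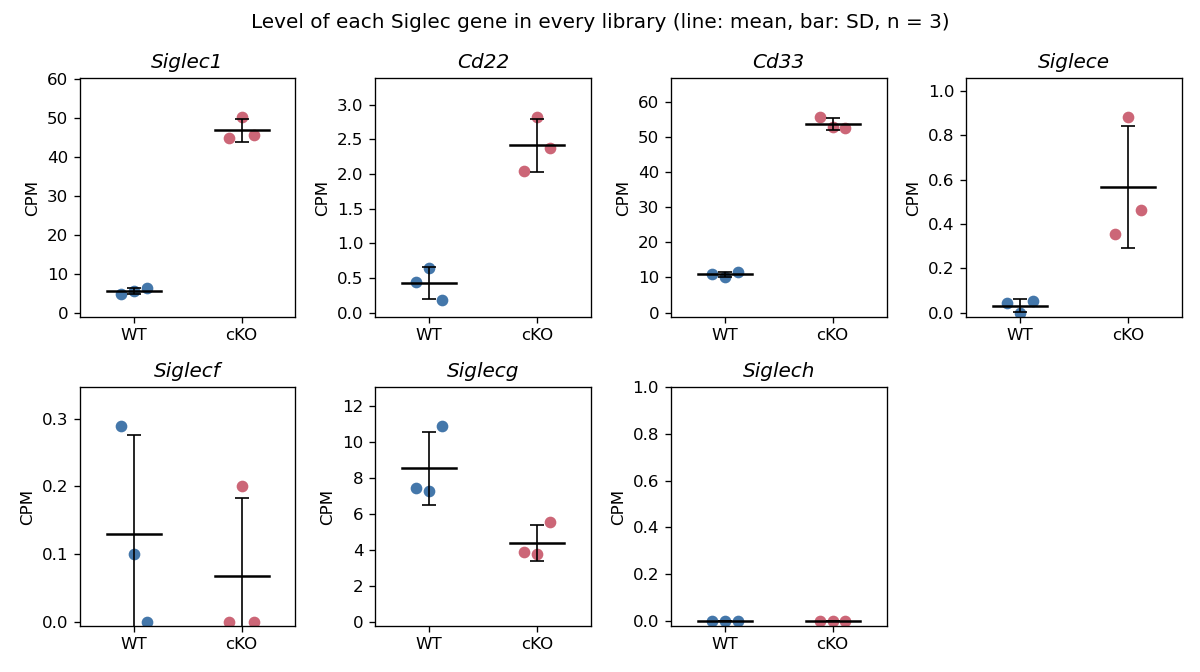
Level of each of the 7 Siglec genes in CPM (linear axes from 0), with a point per library, a line at the mean and a bar of 1 SD (n = 3), for WT and for the libraries labelled cKO. The *Siglec1*, *Cd22*, *Cd33* and *Siglece* points lie higher in the libraries labelled cKO, the *Siglecg* points lie lower, those of *Siglecf* overlap and *Siglech* is at 0.

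Levels were compared between genes after division by gene length, as FPKM computed here (CPM per kilobase of gene). In WT the order was *Siglecg* (1.77 ± 0.421 FPKM), *Cd33* (1.41 ± 0.0925), *Siglec1* (0.769 ± 0.109), *Cd22* (0.0839 ± 0.0462), *Siglecf* (0.0465 ± 0.0525), *Siglece* (0.0173 ± 0.0151) and *Siglech* at 0 (SD, n = 3 each). *Siglecg* and *Cd33* were barely separated, as the lowest *Siglecg* library, at 1.51 FPKM, lay just above the highest library of *Cd33*, and the libraries of *Cd22* and *Siglecf* overlapped, as did those of *Siglecf* and *Siglece*. In the libraries labelled cKO the order was *Cd33* (6.90 ± 0.215 FPKM), *Siglec1* (6.56 ± 0.407), *Siglecg* (0.912 ± 0.206), *Cd22* (0.478 ± 0.0769), *Siglece* (0.306 ± 0.150), *Siglecf* (0.0240 ± 0.0416) and *Siglech* at 0. Neither *Cd33* and *Siglec1* nor *Cd22* and *Siglece* differed there beyond the spread of their libraries.

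The make-up of the family's RNA differed accordingly. The 7 genes summed to 4.10 ± 0.522 FPKM in WT and 15.2 ± 0.467 FPKM in the libraries labelled cKO (SD, n = 3 each). *Siglecg* made up 40.2%, 40.3% and 48.0% of that sum in the 3 WT libraries and 5.41%, 5.00% and 7.66% in those labelled cKO. The share of *Siglec1* went the other way, from 17.2%, 20.3% and 18.7% to 42.3%, 44.7% and 42.5%, and that of *Cd33* was 34.7% ± 2.54 and 45.5% ± 2.54 (SD, n = 3 each). In each library the members other than these 3 made up a small remainder. A share moves when any other member moves, so the shares are not separate measurements of each gene.

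**Figure D2:**
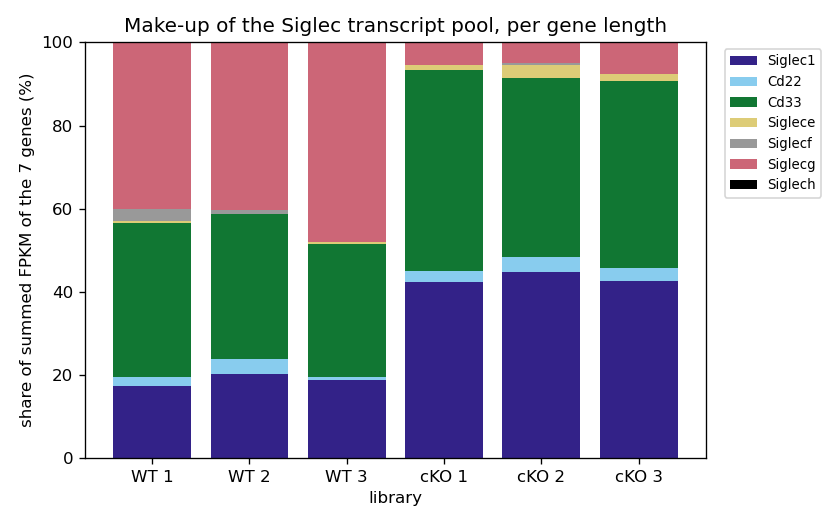
Share of each Siglec gene (%) in the summed per-length level of the 7 genes, as a stacked bar for each of the 3 WT libraries and the 3 labelled cKO. *Siglecg* averages 42.8% of the bar in WT and 6.02% in the libraries labelled cKO, where *Siglec1* and *Cd33* fill most of it.

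*Siglecg* and *Cd33* are near neighbours, with 105.9 kb between them, *Siglecf* ends 48.7 kb before *Siglecg*, and *Siglece* begins 106.6 kb past *Cd33*. The table lists 35 genes from 100 kb before *Siglecf* to 100 kb past *Siglece*. Besides the 3 tested Siglec genes, 8 of them were tested, of which 0 rose and 4 fell, 2 of these past the fold limit. Among all tested genes 20.1% rose, 19.2% fell and 4.64% fell past the limit. The tested genes between *Siglecg* and *Cd33* were *Iglon5*, with a log2 fold change of -2.15, *Vsig10l* with -0.63 and *Etfb*, which did not pass (log2 fold change -0.065, adjusted p = 0.852 by edgeR's quasi-likelihood test). These 3 were named after their values were seen.

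**Figure D3:**
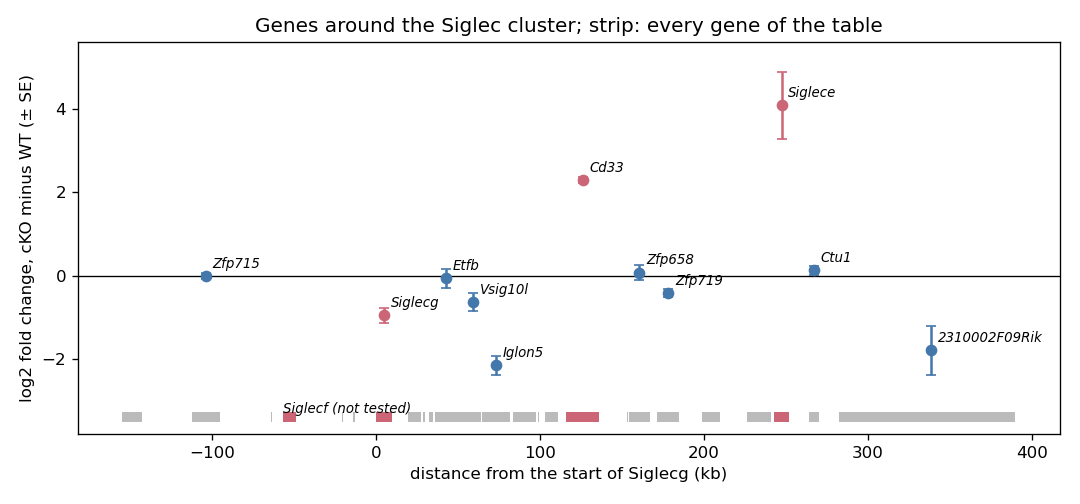
Log2 fold change (libraries labelled cKO minus WT, bar: 1 standard error) of each tested gene around the chromosome 7 cluster, by distance in kb from the start of *Siglecg*, with Siglec genes in red and others in blue. A strip along the bottom marks every gene of the table, and *Cd33* and *Siglece* stand at 2.29 and 4.10, above all their tested neighbours, with *Siglecg* at -0.95. The fitted value of *Siglece* depends on a WT group at the floor of counts.

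The macrophage markers rose in the same libraries, so each member was also set against them within a library, as its log2(CPM + 0.5) minus the mean of the 14 markers on that scale. In the WT group *Siglecg* stood at -0.042, -0.11 and 0.35, and in the group labelled cKO at -2.95, -3.04 and -2.62, a difference of -2.93. *Siglec1* moved from -0.51 ± 0.12 to 0.43 ± 0.11 (SD, n = 3 each), a difference of 0.93. For both genes the groups did not overlap. The size of these differences depends on the 4 untested markers, *Timd4*, *Vsig4*, *Cd163* and *Cx3cr1*, which had 15 counts or fewer in every library and hold the mean of the list down in the libraries labelled cKO. Against the 10 tested markers, an alternative chosen after seeing the data, the difference was 0.21 for *Siglec1* and -3.65 for *Siglecg*. The sign was kept in 10 of 10 alternatives for both genes. *Cd33* differed by 0.18, but by -0.54 against the 10 tested markers, by -0.53 with only *Csf1r*, *Adgre1* and *Cd68* and by 0.014 with a pseudocount of 0.1 CPM. *Cd22* and *Siglece* differed by -0.37 and -1.08 with 0.5 CPM as pseudocount but by 0.099 and 0.017 with 0.1 CPM, so none of the 3 genes has a settled direction. An exact permutation test of 3 against 3 libraries cannot give a two-sided p below 0.1, which *Siglecg*, *Siglec1*, *Cd33* and *Siglece* reached (0.125 after adjustment over the 5 genes), and *Cd22* had an exact p of 0.3.

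**Figure D4:**
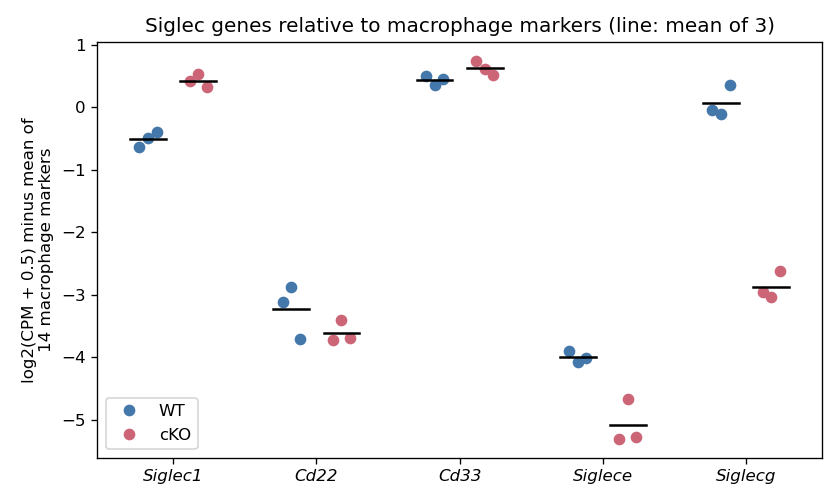
Level of each tested Siglec gene relative to 14 macrophage markers, as the difference of log2(CPM + 0.5) values, with a point per library (blue WT, red labelled cKO) and a line at the mean of 3. *Siglecg* drops by 2.93 and *Siglec1* gains 0.93, a gain that is 0.21 against the 10 tested markers, while the points of *Cd22* overlap.

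By the root mean square difference between profiles over the 6 libraries, each centred on its own mean log2 level, the tested genes outside the family nearest to *Siglec1* were *Pirb* (0.0387) and *Nckap1l* (0.0480), both known from blood cells, although *Pirb* belongs to a family of near copies that can split reads. Nearest to *Cd33* were *Tbc1d9* (0.0447) and *Galnt6* (0.0488). For *Siglecg* they were *Cdh23* (0.119) and *Gm5805* (0.123), with log2 fold changes of -0.94 and -0.98. Nearest were *Dhrs9* (0.131) and *Gm10252* (0.136) for *Cd22* and *Smpd5* (0.0842) and *Ralgps1* (0.101) for *Siglece*. These neighbours did not share the fold change of the member. *Dhrs9* and *Gm10252* had log2 fold changes of 1.66 and 1.53, against 2.47 for *Cd22*. *Smpd5* and *Ralgps1* had 1.66 and 1.01, against a fitted 4.10 for *Siglece*, whose WT group was at the floor. Profiles were taken as log2(CPM + 0.5), which flattens genes with counts as low as those of *Cd22* and *Siglece*.

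Outside the 7, *Mag*, a Siglec of myelinating cells, was counted 2, 7 and 4 times in WT and 8, 9 and 30 times in the libraries labelled cKO. *Siglec15*, which pairs with DAP12 in osteoclasts, was counted 2, 2 and 0 times against 0, 11 and 15, and *Siglecl1* had at most 2 counts. All 3 fell under the filter on low counts. For *Mag* and *Siglec15* 1 cKO-labelled library carried much of the count or none of it. With the filter lifted and all 6 libraries kept, neither passed (adjusted p of 0.0837 for *Mag* and 0.126 for *Siglec15* by edgeR's quasi-likelihood test). Without cKO-labelled replicate 1 both became tested and called higher, *Mag* by 2.17 and *Siglec15* by 3.24 on the log2 scale. The adjusted p-values were then 0.0461 and 0.0171 by the same test. Both genes reached the filter there only through the libraries in which they were high, so these calls lend no support to a difference.

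The proteins that act on Siglec tails were examined next, in 2 lists. The first held 8 kinases, phosphatases and a ubiquitin ligase, and the other 3 genes, the adapters *Tyrobp* and *Hcst* and the kinase *Syk*. Of the 11, all were tested, 8 were called higher, 0 were called lower, and 3 passed the test within the fold limit. *Hcst*, among those called, reached the filter on low counts only through the libraries in which it was high. Among all tested genes 6.56% were called higher and 4.64% lower. *Ptpn6*, the phosphatase SHP-1 that ITIMs recruit, rose from 3.34 ± 0.770 to 31.0 ± 2.68 CPM (log2 fold change 3.23), and *Inpp5d*, the lipid phosphatase SHIP-1, from 10.4 ± 2.07 to 84.9 ± 1.64 CPM (3.03). The kinases *Lyn* and *Fgr*, which phosphorylate such motifs in blood cells, rose with log2 fold changes of 1.93 and 3.73. The 3 genes within the fold limit moved little. *Ptpn11*, the phosphatase SHP-2, fell from 289.3 ± 11.8 to 233.2 ± 3.29 CPM (log2 fold change -0.31), *Src* fell by 0.33 and *Cblb* rose by 0.21 on the log2 scale. The adapters *Tyrobp*, which encodes DAP12, and *Hcst*, which encodes DAP10, rose by 3.01 and 2.70, and the kinase *Syk* by 1.96. All 11 had adjusted p-values of 0.00247 or less by edgeR's quasi-likelihood test. The median log2 fold change was 2.10 over the first list, 2.70 over the list of adapters and *Syk*, where it is the value of *Hcst*, and 0.0077 over all tested genes.

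For the ligands, 4 lists held 41 genes that make, attach, remove or carry sialic acid. Of these, 30 were tested, and 3 were called higher and 2 lower, against 6.56% and 4.64% of all tested genes. Among those called, *Nanp* and *St6galnac5* reached the filter on low counts only through the libraries in which they were high. The counts of calls therefore describe only the genes that could be tested. At the adjusted p-value alone 13 rose and 5 fell while 12 did not pass, against 20.1% and 19.2% of all tested genes that rose and fell. The median log2 fold change over the 30 was 0.064, against 0.0077 over all tested genes. The gene called lower with the higher counts was *Cmah*, which encodes the hydroxylase that turns the sialic acid Neu5Ac into Neu5Gc, a form that mouse CD22 binds well. It was counted 602, 617 and 354 times in WT and 17, 25 and 40 times in the libraries labelled cKO. No cKO-labelled library came near WT, and the mean fell from 11.6 ± 2.23 to 0.638 ± 0.238 CPM (SD, n = 3 each), 18.1-fold, a log2 fold change of -4.18 ± 0.23 (standard error) with an adjusted p of 8.9e-11 by edgeR's quasi-likelihood test.

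Apart from *Cmah* and *Nanp*, the genes of sialic acid synthesis and of transport into the Golgi changed little. *Gne*, which begins the pathway, and *Nans* did not pass (log2 fold changes -0.074 and -0.14), *Cmas*, which activates the sugar, rose by 0.30, and *Slc35a1*, which carries it into the Golgi, fell by 0.21. *Nanp* was called higher from 1, 14 and 0 counts in WT to 10, 21 and 38, and lost the call with counts halved and without WT replicate 1, WT replicate 3, cKO-labelled replicate 2 or cKO-labelled replicate 3. Several other genes of the sialic acid lists rose within the fold limit. *Neu1*, the lysosomal sialidase, went from 27.0 ± 1.35 to 52.9 ± 1.60 CPM (log2 fold change 0.97), *Slc17a5*, the exporter of sialic acid from lysosomes, from 18.6 ± 0.922 to 36.0 ± 1.69 CPM (0.95), and *Renbp*, an enzyme that turns N-acetylmannosamine back into N-acetylglucosamine, from 15.5 ± 0.643 to 29.8 ± 0.894 CPM (0.94). *Siae*, which removes acetyl groups from sialic acid, and *Casd1*, which adds them, rose by 0.41 and 0.32. The sialidase gene *Neu3* and *Npl*, which encodes a sialic acid lyase, did not pass (log2 fold changes -0.33 and -0.13). *Neu2* was counted 8, 34 and 25 times in WT and 8, 0 and 0 times in the libraries labelled cKO and was under the filter on low counts, and it was called lower with that filter lifted, with a mean of at least 10 counts, and without WT replicate 1 or cKO-labelled replicate 1.

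Among 20 sialyltransferases, 13 were tested, with 1 called higher, 1 called lower and 7 not passing the test. *St8sia4*, which builds polysialic acid, rose from 119, 194 and 159 counts in WT to 804, 778 and 776, or by 2.39 ± 0.14 (standard error) on the log2 scale. *St6gal1*, which makes the α2,6 linkage that CD22 recognises, rose by 0.40 and *St3gal1* by 0.40, whereas *St3gal2*, the most abundant of the list, fell by 0.32. *St6galnac5* was counted 18 times in each WT library and 0, 0 and 1 times in those labelled cKO, and was at least 5.76-fold lower against 3 counts per library, or at least 2.88-fold against 6. It was not called under 2 alternatives, counts halved and a filter on a mean of at least 10 counts, and overlaps *Pigk*, which lies on the other strand and is well expressed.

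Of 6 protein carriers of Siglec ligands, 4 were tested. *Selplg*, the selectin ligand PSGL-1, rose from 168, 212 and 199 counts to 1037, 1050 and 1093 (log2 fold change 2.52, standard error 0.11). *Cd24a*, whose product binds Siglec-G, rose from 28.4 ± 2.51 to 53.3 ± 3.72 CPM, or by 0.91 on the log2 scale (adjusted p = 1.15e-08 by edgeR's quasi-likelihood test), so that this ligand and *Siglecg* moved in opposite directions between the same libraries. *Lgals3bp* rose by 0.72 and *Muc1* did not pass (log2 fold change -0.21, 95% interval -0.77 to 0.35).

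**Figure D5:**
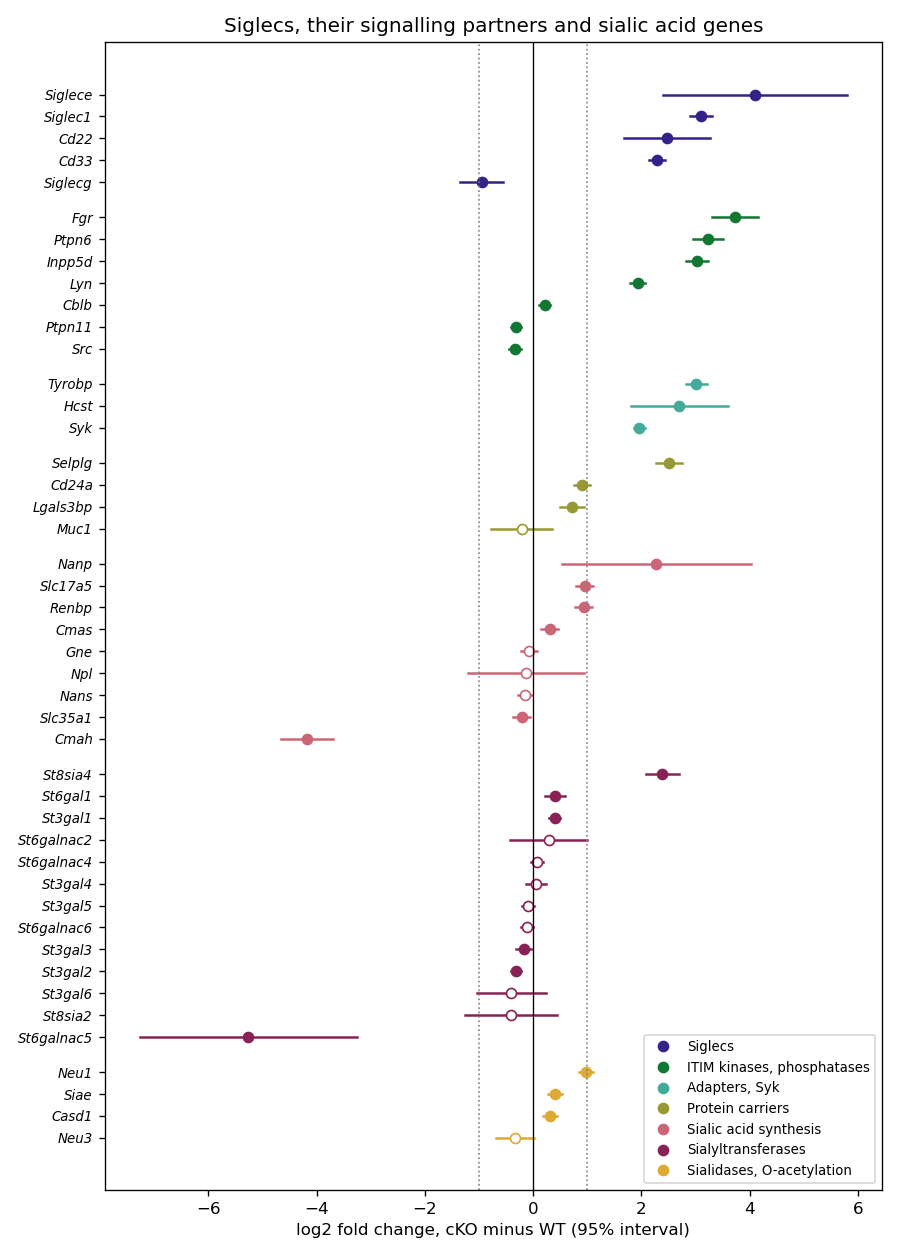
Log2 fold change (libraries labelled cKO minus WT) with its 95% interval for the tested Siglec, signalling and sialic acid genes reported here, coloured by list, with filled points where the adjusted p-value was below 0.05 and dotted lines at the fold limit. Most signalling genes lie to the right of the limit at medians of 2.10 and 2.70, most sialyltransferases lie near 0, and *Cmah* and *St6galnac5* lie far to the left, where the fitted value of *St6galnac5*, like that of *Siglece*, depends on a group at or near 0 counts.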

How the data were processed

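Bulk RNA of 6 stimulated osteocyte cultures was analysed. Paired reads of 150 bp were trimmed and mapped by the authors with HISAT2 on mm39, and the deposited values are raw featureCounts counts per gene beside a gene length in bases. Per the labels these were HISAT2 2.0.5 and featureCounts 1.55.0-p3, whereas the methods name another featureCounts release and also RSEM. Small counts were mostly even (63.4% to 65.7% of counts from 1 to 10), as when both mates of a pair are counted. Floors cover counting error only, whereas intervals of fold changes include the spread between libraries.

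Groups and replicate numbers came from the sample titles. Genes were filtered with filterByExpr, scaled by TMM and tested with glmQLFit and glmQLFTest of edgeR 4.0.16 in R 4.3.3, with genotype as the only term. Standard errors are the log2 fold change divided by the root of the F statistic. FPKM are CPM per kilobase of the deposited gene length. In simulated counts for 17146 genes, 179 of 200 changed genes were recovered and 2 others called. Replicates of a genotype differed by more than sampling noise (chi-square per gene 4.81 to 13.9), so each library was counted.

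The 7 members, the lists of partners, ligands and cell type markers, and the rule for nearest profiles were chosen with earlier results of these data known. Members are named in full, list genes as examples, and genes overlapping a member where they bear on it. Alternatives were DESeq2 1.42.0, limma-voom (limma 3.58.1), edgeR's exact test and robust fit, 3 other scalings, 2 other filters, no fold limit, counts halved, replicate number as a block and each library left out, with the reference limited to tested macrophage markers added after seeing the data. Member coordinates are those of the table, which share the chromosome of each gene in GENCODE M39 on GRCm39. Promoters came from RefSeq for 6 of the 7 members, and *Siglec1* had no entry. Protein sequences were not used here, and a few genes of the lists are counted but not reported singly.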

Additional observations from a re-analysis of the deposited data

How the results depend on the processing

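*Siglec1*, *Cd22*, *Cd33* and *Siglecg* kept their direction and an adjusted p-value below 0.05 in all 17 alternatives, as did *Siglece* in the 16 in which it was tested, with log2 fold changes of 2.99 to 3.19, 2.13 to 2.90, 2.22 to 2.33, -1.15 to -0.75 and 3.47 to 4.55. The number of members called higher was 4 except with counts halved, where it was 3. The number called lower was 0, but 1 with upper-quartile scaling, 1 without the fold limit and 0 to 1 with each library left out. For the other Siglec genes the number called higher was 0, but 1 (*Mag*) with a mean of at least 10 counts and 0 to 2 with each library left out. Without the fold limit, 13 sialic acid genes were higher and 5 lower, 2 signalling genes were lower, and 3445 of all tested genes were higher and 3285 lower. With counts halved, 1 sialic acid gene was called lower. Relative to only 3 macrophage markers, the difference was 0.22 for *Siglec1*, -1.08 for *Cd22*, -0.53 for *Cd33*, which turned its direction, -1.79 for *Siglece* and -3.65 for *Siglecg*. Against the 10 tested macrophage markers, an alternative chosen after seeing the data, it was 0.21, -1.09, -0.54, -1.80 and -3.65 in that order of genes. With a pseudocount of 0.1 CPM it was 0.81 for *Siglec1*, 0.014 for *Cd33* and -3.20 for *Siglecg*, and turned to 0.099 for *Cd22* and 0.017 for *Siglece*. The cause of these shifts was not tested. With replicate number as a block, 4 members were called higher and 0 lower, and 1087 and 772 of all tested genes, and no other call of a member changed. Same-numbered libraries did not deviate together (correlations of -0.0136 to 0.00116), and those of unlike number gave -0.0148 to 0.0152. With 3 libraries per genotype this check cannot exclude a pairing by number, on which the labels are silent. Depth limits *Siglece*, *Siglecf*, *Mag* and *Siglec15*, whose counts were too low for a firm fold change.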

Other observations

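Marker lists of other cells gave few counts or mixed directions. Of 5 monocyte genes 1 was tested, *F13a1*, which rose by 1.01 on the log2 scale, and *Chil3* had 0 counts in all 6 libraries. Of 7 neutrophil genes 2 were tested and both called higher. *Csf3r*, which macrophages can also express, rose from 0.170 ± 0.0774 to 3.32 ± 0.465 CPM (SD, n = 3 each), and *S100a8* rose by 1.61 on the log2 scale while *S100a9* and *Retnlg* had 0 counts throughout. Of 6 eosinophil genes 1 was tested, *Ccr3*, at 2, 0 and 12 counts in WT and 24, 36 and 62 in the libraries labelled cKO, and it was called higher. *Csf3r* and *Ccr3* reached the filter on low counts only through the libraries in which they were high. The tested plasmacytoid dendritic cell genes were *Irf8* and *Bst2*, both called higher and both known from other cells, and *Tcf4*, which did not pass. Erythroid genes reached at most 22 counts and none was tested.

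In the other direction, *Mcpt8*, known as a basophil protease gene, fell from 20.1 ± 4.48 to 4.28 ± 0.0649 CPM (SD, n = 3 each) while *Cpa3*, *Mcpt4* and *Fcer1a* had 0 counts in all 6 libraries, and *Gata2* did not pass. *Trac*, a T cell receptor gene, was counted 51, 56 and 35 times in WT and 7, 0 and 0 times in the libraries labelled cKO, while *Cd3d*, *Cd3e*, *Cd3g* and *Nkg7* had 0 counts throughout. *Nkg7* lies within the chromosome 7 Siglec cluster. Of 8 osteoclast genes 6 were tested: *Atp6v0d2* rose by 1.84 and *Acp5* by 1.24 on the log2 scale, *Mmp9* had a log2 fold change of -2.83 and *Ctsk* of -0.41, and *Oscar* and *Ocstamp* did not pass. Of 6 osteoblast genes 5 were tested, of which *Ibsp* and *Alpl* rose and *Col1a1*, *Sp7* and *Spp1* fell. *Pdpn*, the 1 osteocyte gene tested of 6, had a log2 fold change of -0.28.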
